A study of Rattus norvegicus with 70 samples.

Results

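Subunits of the ion channels and receptors that carry electrical and synaptic signals in neurons were followed in rat liver by the methylation signal around their transcript starts. A region was taken as a member when its gene symbol began with Kcn (potassium channels), Scn and a digit (sodium channels), Cacna, Cacnb or Cacng (calcium channels), Gabr (GABA-A receptors), Gria, Grid, Grik, Grim or Grin (ionotropic glutamate receptors), Grm (metabotropic glutamate receptors) or Chrn (nicotinic acetylcholine receptors). The symbols alone chose 211 of the 17174 regions, which carry 190 symbols and cover 198 distinct places, and the members were split into 19 families by symbol. The rule uses no measured value, but this set of genes was proposed with earlier results of these data known.

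The libraries hold liver DNA of Crj:CD(SD)IGS rats, an outbred stock, sequenced after capture of its methylated fragments on a methyl-CpG binding domain. All animals followed a 2-stage scheme in which an initiating treatment or its vehicle is followed by 2 weeks without treatment and then by promotion. The promoted control received 0.5% methylcellulose, followed by drinking water with 500 ppm phenobarbital, and the water control 0.5% methylcellulose, followed by plain water. The 5 initiated groups received diethylnitrosamine (DEN) at 3 mg/kg or 30 mg/kg, 45 mg/kg thioacetamide, 100 mg/kg methapyrilene or 1000 mg/kg acetaminophen, each followed by the same phenobarbital. Initiation lasted 1 or 2 weeks, and 1 week for DEN 30 mg/kg. The early sample is the liver removed in partial hepatectomy, 1 week into promotion, and the late one comes from terminal euthanasia, 6 weeks into it, so every animal sampled at the later time had been through partial hepatectomy. Each of the 14 groups has 5 libraries from 5 livers, and values are means ± SD over n = 5 unless stated. Ages are not in the labels, and each liver is a mixture of cell types, so fewer cells of a type and less signal per cell cannot be told apart.

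Voltage-gated potassium, sodium and calcium channels open on depolarization and shape the action potential, inward rectifiers and two-pore channels set the resting potential, and accessory subunits tune them. GABA-A receptors are the main inhibitory, and AMPA, kainate and NMDA receptors the main excitatory, ligand-gated channels of the brain. Most of these genes are not known for a role in hepatocytes, and methylation near a gene's start is one of the marks found at genes a tissue does not use. RNA was not measured in these libraries, so silence in liver could not be checked. The symbols also take in genes best known outside neurons, among them the muscle nicotinic subunits Chrna1, Chrnb1, Chrnd, Chrne and Chrng, the skeletal muscle channel genes Scn4a and Cacng1 and the renal Kcnj1.

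The regions differ widely in signal, and the promoter sequences below show that the number of CG dinucleotides, the sites that can be methylated in mammals, does not put them in order of signal. Promoters were read from RefSeq on GRCr8, from 250 bases before to 50 bases after a start. They are printed 5′ to 3′ on the gene's strand with every CG in capitals. Gabra3 (chrX:155543821-155544120, minus strand) and Grm5 (chr1:150733503-150733802, plus strand) are at the low end of the signal. Grik3 (chr5:143052192-143052491, plus strand) is low with many CGs, and Scn8a (chr7:133860977-133861276, plus strand) is high with many. Kcnj16 (chr10:96517074-96517373, plus strand) is high with few CGs, as is Cacng5 (chr10:93336618-93336917, minus strand), which returns in the treatment comparisons. The table has 2 starts for Kcnk2, at chr13:103438593-103438892 and chr13:103494637-103494936 on the minus strand.
Gabra3: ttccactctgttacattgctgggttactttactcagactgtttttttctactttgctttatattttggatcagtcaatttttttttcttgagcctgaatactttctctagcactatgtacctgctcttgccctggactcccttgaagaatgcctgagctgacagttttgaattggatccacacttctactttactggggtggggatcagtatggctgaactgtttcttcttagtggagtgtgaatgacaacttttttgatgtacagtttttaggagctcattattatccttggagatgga
Grm5: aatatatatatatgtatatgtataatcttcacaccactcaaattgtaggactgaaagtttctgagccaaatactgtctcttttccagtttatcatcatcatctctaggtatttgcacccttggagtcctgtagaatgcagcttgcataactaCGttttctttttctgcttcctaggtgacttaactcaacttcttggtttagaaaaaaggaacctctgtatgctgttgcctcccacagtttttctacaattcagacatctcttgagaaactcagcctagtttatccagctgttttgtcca
Grik3: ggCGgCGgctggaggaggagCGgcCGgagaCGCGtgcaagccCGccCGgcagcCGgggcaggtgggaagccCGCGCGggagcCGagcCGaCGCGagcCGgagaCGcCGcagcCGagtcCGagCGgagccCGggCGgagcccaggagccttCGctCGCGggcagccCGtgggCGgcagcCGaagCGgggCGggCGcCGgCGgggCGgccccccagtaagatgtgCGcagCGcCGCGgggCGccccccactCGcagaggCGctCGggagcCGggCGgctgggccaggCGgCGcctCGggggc
Scn8a: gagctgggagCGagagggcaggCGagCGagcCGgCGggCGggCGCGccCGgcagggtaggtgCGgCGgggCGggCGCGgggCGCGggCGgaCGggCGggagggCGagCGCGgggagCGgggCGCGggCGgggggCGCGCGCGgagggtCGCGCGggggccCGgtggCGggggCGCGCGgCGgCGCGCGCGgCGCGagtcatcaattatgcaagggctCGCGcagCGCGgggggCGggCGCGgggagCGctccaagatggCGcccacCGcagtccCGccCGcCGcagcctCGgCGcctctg
Kcnj16: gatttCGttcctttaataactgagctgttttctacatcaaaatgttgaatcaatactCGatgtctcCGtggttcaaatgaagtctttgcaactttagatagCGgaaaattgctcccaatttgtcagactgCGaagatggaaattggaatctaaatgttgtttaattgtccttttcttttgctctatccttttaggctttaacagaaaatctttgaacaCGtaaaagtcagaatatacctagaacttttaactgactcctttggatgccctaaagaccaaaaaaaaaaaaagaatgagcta
Cacng5: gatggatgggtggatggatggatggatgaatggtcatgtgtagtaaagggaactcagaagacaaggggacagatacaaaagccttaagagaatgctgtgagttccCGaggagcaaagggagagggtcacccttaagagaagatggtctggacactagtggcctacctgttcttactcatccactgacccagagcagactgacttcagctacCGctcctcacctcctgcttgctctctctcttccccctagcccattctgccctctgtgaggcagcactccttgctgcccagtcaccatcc
Kcnk2 first entry: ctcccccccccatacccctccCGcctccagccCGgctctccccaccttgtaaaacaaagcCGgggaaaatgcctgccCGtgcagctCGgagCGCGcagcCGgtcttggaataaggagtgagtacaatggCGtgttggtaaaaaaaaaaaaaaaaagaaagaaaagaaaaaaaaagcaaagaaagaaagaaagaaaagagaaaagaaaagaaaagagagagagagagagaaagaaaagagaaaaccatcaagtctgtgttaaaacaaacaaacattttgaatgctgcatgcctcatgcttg
Kcnk2 second entry: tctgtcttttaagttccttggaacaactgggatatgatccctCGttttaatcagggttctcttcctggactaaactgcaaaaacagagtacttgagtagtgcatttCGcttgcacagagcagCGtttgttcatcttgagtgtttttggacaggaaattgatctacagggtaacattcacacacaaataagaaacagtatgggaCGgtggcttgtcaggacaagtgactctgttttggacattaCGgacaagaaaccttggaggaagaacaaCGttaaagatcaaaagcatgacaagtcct

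The count of CG was 0 in the Gabra3 promoter, 1 in Grm5, 49 in Grik3, 60 in Scn8a, 6 in Kcnj16, 2 in Cacng5, and 9 and 6 in the Kcnk2 entries. CG reads the same on both strands, and 94.5% of all 33469 promoters in the table hold at least 1, with a median of 7. A promoter was found for 136 of the 198 places and not for 62, and 116 places had 1 entry and 1 place per gene. Over those 116 places Spearman's rho between CG count and signal was -0.11, against 0.10 over the 12263 such places of the whole table. This is a description across genes, which share the same libraries. The median signal was 77.6 over the 21 members with 0 to 4 CGs, 120 over the 37 with 5 to 12, 75.5 over the 25 with 13 to 24 and 60.6 over the 33 with more. The whole table has 25.8, 91.8, 54.3 and 51.5 in the same classes. Members with few CGs thus lay further from the table than the other classes did. A deposited region reaches well beyond its promoter, so the printed bases are only a part of what was measured.

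The deposited signal is a count of reads in a region of 5625 bp, scaled by the authors with 1 factor per library, and all regions have the same length. Averaged over the 70 libraries it ran from 1.55 at Gabra3, an alpha subunit of the GABA-A receptor, to 610 at Cacnb2, the beta subunit of cardiac calcium channels. The median over the 198 places was 73.4 (interquartile range 36.4 to 152), against 53.6 over all 16876 places of the table. Of the members, 119 (60.1%) lay above the median of the table, 33 (16.7%) in its top decile and 8 (4.04%) in its bottom decile. Other neuronal genes outside the rule (93 places, such as synaptic vesicle proteins and transmitter transporters) had a median of 50.6, and 19 places of genes that hepatocytes express strongly had 52.4. In each of the 70 libraries the member median exceeded that of all places, by 1.21 to 1.59 times. The signal was not corrected for sequence, so levels of different genes are not degrees of methylation.

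**Figure D1:**
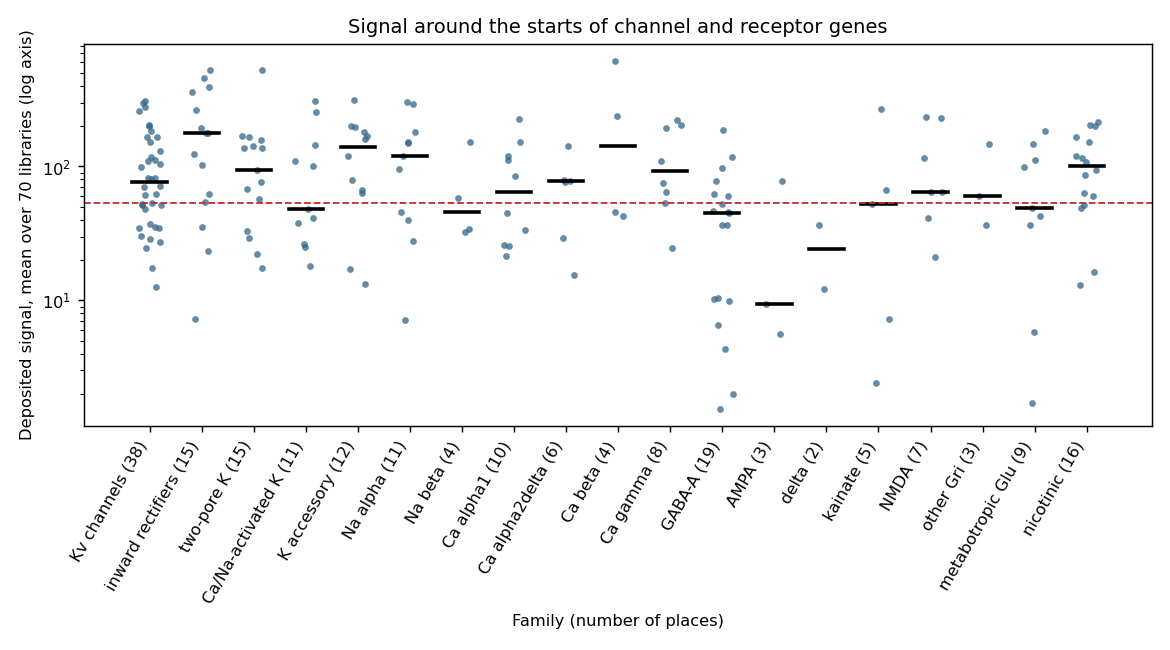
Mean deposited signal over 70 libraries (log axis) for each member place, by family, with the number of places in brackets. Points are places, black bars are family medians and the dashed line is the median of all places, 53.6. Inward rectifiers have the highest family median, 179, and AMPA receptor subunits the lowest, 9.41.

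Among potassium channels, the inward rectifiers stood highest, with a median of 179 over 15 places. Kcnj16, a rectifier subunit of kidney and glia, had 526 ± 120 (SD over 70 libraries) and Kcnj2, which carries the classical inward rectifier current, had 457 ± 98.9. Kcnj13, a rectifier of epithelia, had 7.24 ± 6.2. Accessory subunits had a median of 140 over 12 places, from 13.3 at Kcnab1 to 315 at Kcne4, a modulator of voltage-gated channels. The 38 places of voltage-gated subunits had a median of 76.1, from 12.7 at Kcnv1 to 310 at Kcnd2, a subunit of the A-type current. Channels activated by calcium or sodium had 47.8 over 11 places, from 17.9 at Kcnn3 to 307 at the sodium-activated Kcnt1.

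The 15 places of two-pore channels had a median of 93.4. Kcnk2, the mechanically gated TREK-1, holds both their lowest and their highest value, at starts 57.5 kb apart. Its region at chr13:105573113-105578738 in the files had 527 ± 104, and the one at chr13:105515662-105521287 had 17.3 ± 10.1. The first exceeded the second in 70 of 70 libraries. The lowest library of the first, 207, lay above the highest of the second, 50.4, and the means differed by 30.4 times.

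Sodium channel alpha subunits had a median of 120 over 11 places, led by Scn8a, the channel of axon initial segments, with 304 ± 59.6, and Scn10a of sensory neurons with 291 ± 56.5. The files place 1 Scn3a transcript at 2 positions on chromosome 3, and the placements had 151 ± 29.8 and 7.13 ± 7.0. The 4 beta subunits had a median of 45.9, with 32.3 at Scn3b, the lowest. Calcium channel alpha1 subunits had 64.8 over 10 places, from 21.5 at the retinal Cacna1f to 225 at the T-type Cacna1i. The alpha2delta subunits had 77.7 (Cacna2d2 15.5, Cacna2d4 142), and the gamma subunits 92.5 (Cacng4 24.5, Cacng2 222). The 4 beta subunits split into Cacnb2 at 610 ± 122 and Cacnb4 at 237 ± 46.9, against Cacnb3 at 46.1 ± 14.3 and Cacnb1 at 42.5 ± 11.8.

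Among receptors, the nicotinic subunits had a median of 102 over 16 places (Chrna7 12.9, Chrna9 214), and the other receptor families lay below that. Not all of these lay below the channel families. The metabotropic, kainate and NMDA medians exceeded those of sodium channel beta subunits and of potassium channels activated by calcium or sodium. GABA-A subunits had a median of 44.8 over 19 places, and 4 of their places were in the bottom decile of the table. Gabra3 had no read in 34 of 70 libraries and Gabre in 30, while Gabrr1, a subunit of retinal GABA receptors, had 189 ± 43.1. AMPA subunits had 9.41 over 3 places (Gria3 5.63, Gria4 9.41, Gria2 78.1). Kainate subunits had a median of 52.6, from 2.40 at Grik2 to 269 at Grik4. NMDA subunits had 65.02, from 20.9 at Grin2d to 232 at Grin2c. Metabotropic receptors had a median of 48.9. Of these Grm5 had no read in 46 of 70 libraries and a mean of 1.72, and Grm8 had 184 ± 31.9.

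The median over all members lay between 65.3 (acetaminophen at partial hepatectomy) and 76.7 (DEN 30 mg/kg at terminal euthanasia), a ratio of 1.17, and that over all places between 50.6 and 56.9, a ratio of 1.12. Inward rectifiers ranged from 150 to 197 between groups and GABA-A subunits from 36.3 to 50.1. AMPA subunits ranged from 5.06 in DEN 3 mg/kg to 14.5 in the promoted control, both at terminal euthanasia. Cacnb2 had its lowest group mean of 555 ± 145 after acetaminophen and its highest of 674 ± 54.5 in the promoted control, both at the earlier time.

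**Figure D2:**
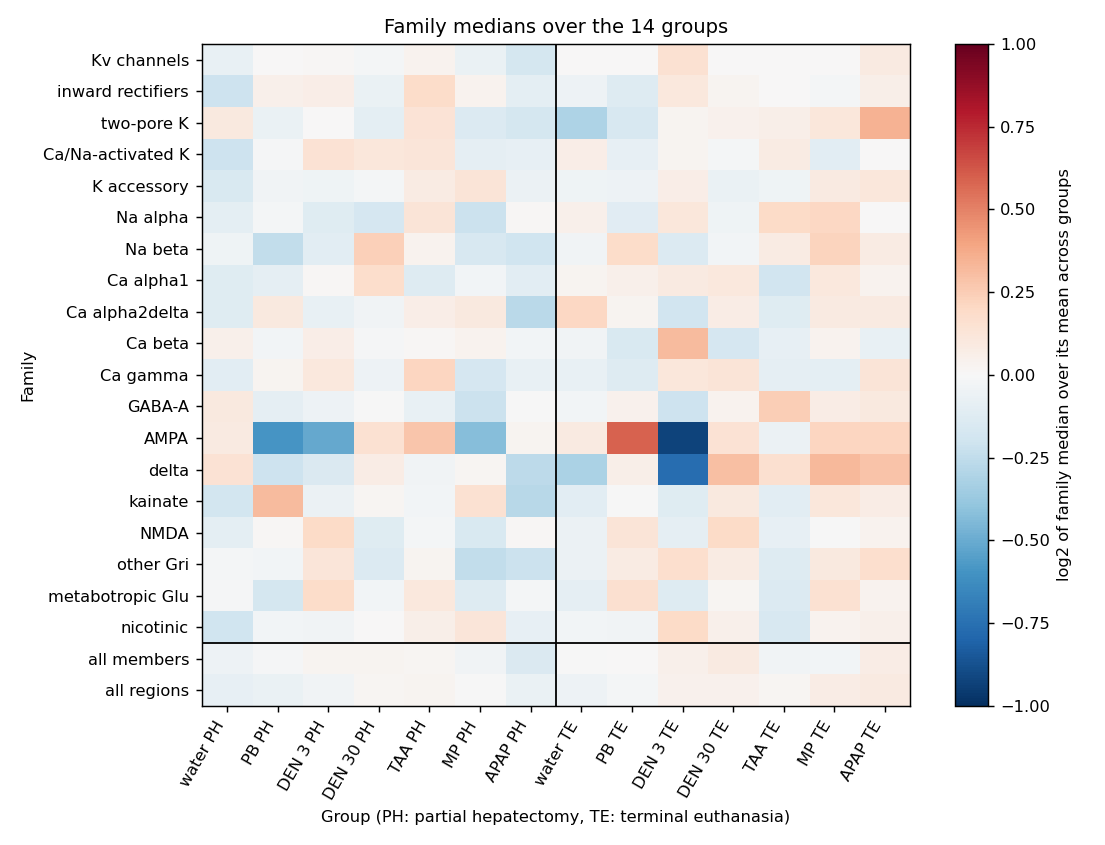
Median of each family in each of the 14 groups, as log2 of its ratio to the family's mean over the groups (colour scale). PB is the promoted control, TAA thioacetamide, MP methapyrilene and APAP acetaminophen. The AMPA and delta families, with 3 and 2 places, vary most, and the rows for all members and all regions vary least.

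Libraries differed in how evenly their reads were spread, and this moved with member levels. The regions of a library held 933037 to 1796406 reads and the members 14206 to 28434. In 9 libraries fewer than 1% of regions had no read. Their reads lay more evenly over the regions, and they are called weakly enriched here, although no value here measures enrichment directly. At partial hepatectomy 1 was in the water control, 2 in DEN 30 mg/kg and 1 in acetaminophen, and at terminal euthanasia 1 was in the promoted control and in each initiated group except DEN 3 mg/kg. The 13 members with means under 10 averaged 13.7 (10.01 to 21.5) in the 9 libraries and 4.25 (2.02 to 8.08) in the other 61, and each of the 13 was higher in the former. Low members enter the share of regions without a read that set these libraries apart, and so their difference is partly built in. The 10 members with means of 300 or more averaged 255 (201 to 300.2) against 434 (339 to 556), with 0 of 10 higher. Neither pair of ranges overlapped. In addition, 10 libraries, replicate 5 of each initiated group at both times, carry the last library numbers. They repeat the scaling totals of 10 earlier libraries, and their member median was 87.6 against 70.4 in the others. Their median over all places was likewise higher, 63.05 against 51.6. The ratio of the member median to that of all places was 1.39 against 1.37, so the higher level was not particular to members. Which of the repeated totals are right cannot be told from the files, so the values of these 10 libraries, and the group means that hold them, may be off in scale.

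**Figure D3:**
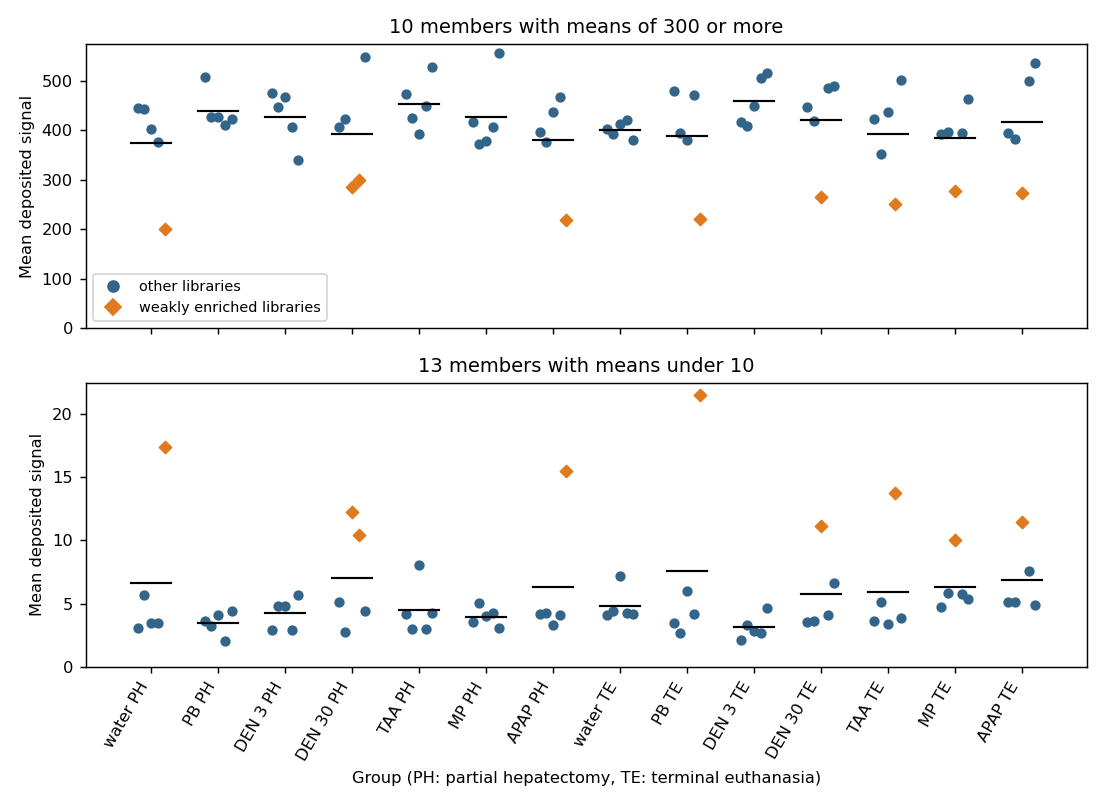
Mean signal of the 10 highest members (top) and the 13 lowest (bottom) in each library, by group, with group means as bars and weakly enriched libraries as orange diamonds. The diamonds lie at 201 to 300.2 in the upper panel and 10.01 to 21.5 in the lower one.

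No member passed in any treatment comparison. At partial hepatectomy 206 members could be tested, and 0 passed in the 7 contrasts at a limma adjusted p of 0.05, against 0% of the 15809 tested regions in each. The F test over the 7 conditions passed 0 members and 1 region in all, 0.00633%. At terminal euthanasia 0 of 207 members passed in the 7 contrasts and the F test, against 0% of 16008 regions. Grm5, Grik2, Gabre and Gabra3 were too low to be tested at both times. The promoted control is shared by 6 of the 7 contrasts at each time, so these are not independent. The median standard error of a member's log2 difference was 0.22 at partial hepatectomy and 0.23 at terminal euthanasia. That the livers of a group are separate animals rests on the labels, and the p-values measure the spread between these libraries.

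Counts before adjustment were read against the table. For phenobarbital against water, 13 members had an unadjusted p under 0.05 at partial hepatectomy (6.31%; all regions 6.28%) and 4 at terminal euthanasia (1.93%; all regions 3.17%). For DEN 3 mg/kg against the promoted control the counts were 3 (1.46%, all regions 3.17%) and 17 (8.21%, all regions 8.51%). Of the 17, 6 were higher and 11 lower. DEN 30 mg/kg gave 14 (6.80%, all regions 7.64%, 11 higher and 3 lower) and 3 (1.45%, all regions 3.41%). Thioacetamide gave 5 (2.43%, all regions 4.44%) and 1 (0.48%, all regions 2.06%). Methapyrilene gave 6 (2.91%, all regions 3.67%) and 2 (0.97%, all regions 2.57%). Acetaminophen gave 6 (2.91%, all regions 3.68%) and 3 (1.45%, all regions 2.76%). DEN 30 mg/kg against DEN 3 mg/kg gave 11 (5.34%, all regions 5.22%) and 12 (5.80%, all regions 3.01%), the latter with 9 higher. The F test gave 5 members (2.43%, all regions 4.16%) and 6 (2.90%, all regions 2.55%). Over the 14 contrasts together 100 of 2891 member tests were under 0.05, 3.46%, against 4.25% in the table, 4.76% for the other neuronal genes and 5.26% for the liver-expressed genes. Of those lists, too, 0 regions passed the adjusted threshold with limma.

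These counts moved with the weakly enriched libraries, and so did those over all regions. In the 7 contrasts whose groups held unequal numbers of them, 4 to 17 members were under 0.05 (77 of 1445 tests, 5.33%). In the 7 contrasts with equal numbers 1 to 6 were (23 of 1446, 1.59%). Over all regions the shares per contrast were 3.01% to 8.51% and 2.06% to 4.44%, so the shift was not particular to members. Without the 9 libraries the member counts were 58 of 1407 (4.12%) and 47 of 1407 (3.34%). The shares of all regions per contrast were then 3.14% to 5.54% and 3.29% to 5.76%. The direction moved with level as well. For DEN 30 mg/kg against the promoted control at partial hepatectomy, the median log2 difference was 0.42 over the 61 tested of the 66 places with the lowest level and -0.12 over the 66 with the highest, and 0.15 and 0.05 without the 9 libraries. For DEN 3 mg/kg at terminal euthanasia, where only the promoted control held such a library, it was -0.28 and 0.23, and -0.17 and 0.07 without. The gap between the lowest and highest level class was 0.23 to 0.55 in size in the contrasts with unequal numbers and 0.01 to 0.13 in the others. Without the 9 libraries it was 0.02 to 0.24 and 0.00 to 0.20, ranges that overlap, and for methapyrilene at terminal euthanasia it was 0.20 in place of 0.12. The part of the weakly enriched libraries in single differences was not tested beyond leaving them out.

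**Figure D4:**
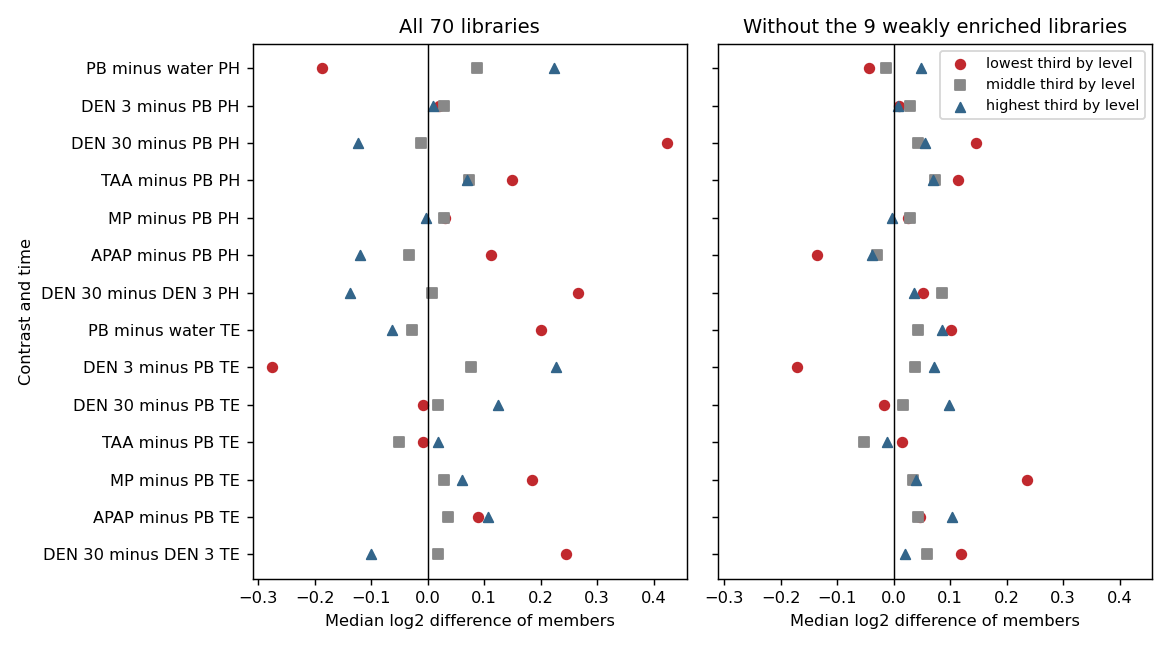
Median limma log2 difference of members in 3 level classes of 66 places (lowest, middle, highest), for each contrast at partial hepatectomy (PH) and terminal euthanasia (TE), with all libraries (left) and without the 9 weakly enriched ones (right). The classes spread most for DEN 30 minus PB PH, from -0.12 to 0.42, against 0.05 and 0.15 for the highest and lowest class on the right.

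Single members are named by the smallest p in each direction, as values that did not pass. Of the 56 differences picked this way, not all reported here, 7 had groups that did not overlap. Picking by the smallest p favours such groups, so a lack of overlap adds no separate evidence. It was not counted over all members or regions. Cacng5 encodes a transmembrane AMPA receptor regulator. Its region had 157, 136, 126, 173 and 170 in the libraries of DEN 30 mg/kg and 262, 241, 198, 309 and 184 in the promoted control. All 5 libraries of DEN 30 mg/kg lay below all 5 controls. The means were 152 ± 20.9 and 239 ± 50.1, a log2 difference of -0.63 ± 0.18 (SE, limma adjusted p = 0.37), and -0.61 without the weakly enriched libraries. Against DEN 3 mg/kg (216 ± 25.1) the difference was -0.50 (adjusted p = 0.91), again with no overlap. At terminal euthanasia the DEN 30 mg/kg group had 180 and the promoted control 205, a difference of -0.15 with overlapping libraries.

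Scn4b, a sodium channel beta subunit, had 68.8, 71.5, 78.6, 66.2 and 75.98 in DEN 30 mg/kg and 58.98, 32.2, 23.3, 39.3 and 59.2 in the promoted control of the same time. Every treated library lay above every control, and the treated ones were close together (72.2 ± 5.1 against 42.6 ± 16.1). The log2 difference was 0.83 ± 0.25 (SE, limma adjusted p = 0.39), and it was 0.83 without the weakly enriched libraries. Chrnb2, a subunit of the main nicotinic receptor of the brain, had 23.5 against 9.54, a difference of 1.21 (adjusted p = 0.54) that was 0.87 without those libraries, and here the groups overlapped.

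Grm7 encodes a presynaptic metabotropic glutamate receptor, and the files place its transcript at 2 positions on chromosome 4. The second placement (chr4:146789577-146795202) had 19.05, 26.3, 23.02, 12.04 and 51.3 in DEN 30 mg/kg at partial hepatectomy and 70.8, 72.8, 55.98, 44.2 and 41.99 in DEN 3 mg/kg. Replicate 5 of DEN 30 mg/kg stood apart from its group and lay within the range of DEN 3 mg/kg. The log2 difference was -1.21 ± 0.28 (SE, limma adjusted p = 0.36). It was -1.48 (adjusted p = 0.026) without that replicate, -1.58 (adjusted p = 0.0072) without the last library numbers, and -0.89 (adjusted p = 0.99) without the weakly enriched libraries. Against the promoted control (43.9 ± 17.3) it was -0.78 (adjusted p = 0.54). The first placement had 37.5 in DEN 30 mg/kg and 32.4 in DEN 3 mg/kg, a difference of 0.18. At terminal euthanasia the second placement had 42.4 and 45.96, a difference of -0.11. The lower values in DEN 30 mg/kg were thus seen at 1 placement and 1 time, and the differences between placements and between times were not tested.

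Cacna2d3, an alpha2delta subunit, had 33.5 in DEN 30 mg/kg against 18.7 in DEN 3 mg/kg at partial hepatectomy, a log2 difference of 1.08 (limma adjusted p = 0.87) that was 0.79 without the weakly enriched libraries. Kcna1, which carries a delayed rectifier current of axons, had 63.3 against 43.01, a difference of 0.63 (adjusted p = 0.91). Both pairs of groups overlapped.

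In the other contrasts at partial hepatectomy the values were as follows. Kcna4, an A-type potassium channel subunit, had 220, 229, 196, 239 and 222 in the promoted control and 187, 135, 191, 175 and 115 in the water control. The groups did not overlap, and the log2 difference was 0.48 ± 0.19 (SE, limma adjusted p = 0.73). Kcnc2, a fast delayed rectifier of interneurons, had 38.1, 30.7, 30.9, 37.3 and 40.01 after methapyrilene and 14.7, 23.3, 22.3, 22.9 and 15.05 in the promoted control. These did not overlap either, with a difference of 0.84 ± 0.30 (limma adjusted p = 0.999), and neither group holds a weakly enriched library. Scn3b, a sodium channel beta subunit, had 22.1 ± 4.4 after methapyrilene and 36.3 ± 5.9 in the promoted control, a difference of -0.70 (adjusted p = 0.999) with no overlap. Chrng, the fetal muscle nicotinic subunit, had 118 in the promoted and 80.5 in the water control, a difference of 0.54 (adjusted p = 0.73).

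Kcnj3, a subunit of channels gated by G proteins, had 12.5 in the promoted control at partial hepatectomy, 22.2 in the water control and 21.98 after thioacetamide, differences of -0.86 for phenobarbital and 0.86 for thioacetamide that share the promoted control. Scn3a at its low placement likewise had 2.26 in the promoted control, 10.5 in the water control and 11.7 after acetaminophen. Chrna5, a nicotinic subunit, had 48.1 in that control against 62.98 (DEN 3 mg/kg), 65.8 (thioacetamide) and 64.6 (methapyrilene). For acetaminophen, Grik5, a kainate receptor subunit whose region overlaps Znf574, had 43.3 against 67.4 (-0.65, limma adjusted p = 0.99), Kcnh7, of the ERG channels, 33.7 against 56.1, and Gabra5 57.9 against 39.7. For DEN 3 mg/kg, Kcnq3 had 19.9 against 11.9, Kcnj12 42.7 against 67.04 and Cacna1e, the R-type calcium channel, 20.3 against 44.4. Cacng3, a sister of Cacng5, had 53.2 after thioacetamide against 70.9, and Scn1a 31.9 against 43.97.

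At terminal euthanasia the contrasts with DEN 3 mg/kg held the most members under 0.05. Cacnb4, the calcium channel beta subunit of cerebellum, had 216, 316, 422, 272 and 329 in DEN 3 mg/kg and 223, 228, 214, 217 and 133 in the promoted control, where 133 is the weakly enriched library. The difference was 0.61 ± 0.20 (SE, limma adjusted p = 0.58), and 0.46 without that library. Cacna1e had 17.04 ± 13.7 against 37.4 ± 21.9, a difference of -1.47 (adjusted p = 0.58), and it lay in the same direction at partial hepatectomy (-0.94). Chrna1, the muscle nicotinic alpha subunit, had 239 against 172, a difference of 0.49 (adjusted p = 0.58). In DEN 30 mg/kg against DEN 3 mg/kg, Cacna1b, the N-type channel, had 32.2 against 12.4, and Kcns1, a silent potassium channel subunit, 92.9 against 135.

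**Figure D5:**
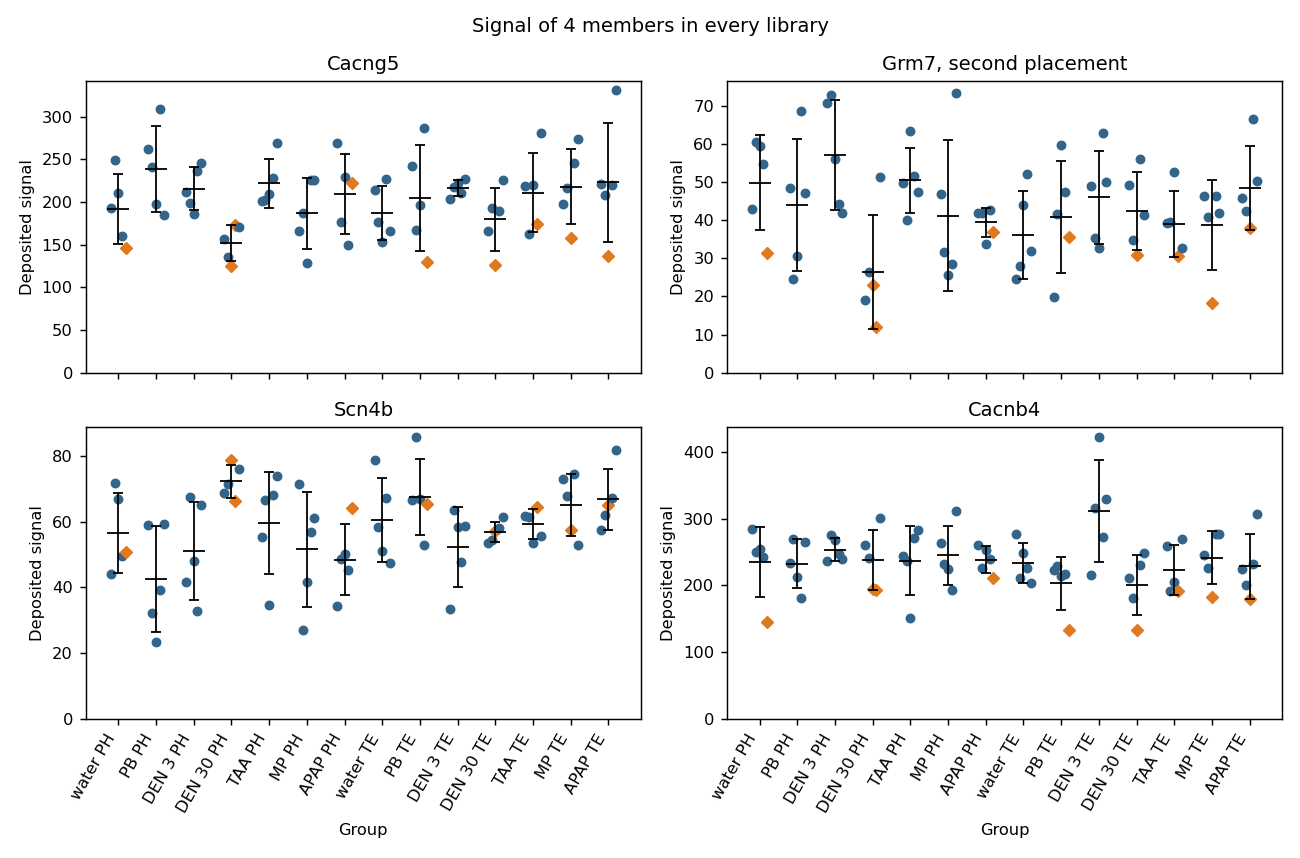
Deposited signal of Cacng5, the second placement of Grm7, Scn4b and Cacnb4 in each library by group, with means ± SD (n = 5) in black and weakly enriched libraries as orange diamonds. Cacng5 has its lowest group mean, 152, in DEN 30 mg/kg at partial hepatectomy, and Cacnb4 its highest, 311, in DEN 3 mg/kg at terminal euthanasia.

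The remaining named members at terminal euthanasia overlapped between groups. For phenobarbital against water, Kcnq1, a channel of heart and epithelia, had 36.1 against 21.3 and Grin2a 70.8 against 51.1, while Kcnmb1 had 230.1 against 292 and Chrna1 172 against 211. For DEN 30 mg/kg, Kcnd1 had 166 against 122, Kcns3 73.4 against 53.998, Kcnq1 23.5 against 36.1 and Cacng3 60.7 against 78.97. Scn4a had 142 after thioacetamide against 111, Gabra2 50.1 against 39.04 and Grin1 36.3 against 52.7. After methapyrilene Kcng3 had 220 against 168 and Kcnc1 44.3 against 64.1. After acetaminophen Kcnk15 had 120 against 84.4, Kcnk3 91.7 against 70.6, Kcnh4, whose region overlaps Hcrt, 74.1 against 95.99 and Kcnq1 23.8 against 36.1. In the F tests, Grm7 (second placement), Cacng5 and Kcnn4, the calcium-activated channel of blood cells and epithelia, had the smallest p at partial hepatectomy (limma adjusted p = 0.89, 0.99 and 0.94), and Cacna1e was among the smallest at terminal euthanasia (adjusted p = 1.00).

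Between the times 208 members could be tested over all conditions, and 0 passed with limma against 11 regions of the table, 0.0671%. An unadjusted p under 0.05 was reached by 13 members (6.25%; all regions 6.59%), 12 of them higher at terminal euthanasia. The member median log2 difference was 0.04, against 0.05 in the table. Kcnt2, a sodium-activated potassium channel, had 34.9 over the 35 libraries at partial hepatectomy (range 15.99 to 90.2) and 40.8 at terminal euthanasia (19.8 to 73.5), a difference of 0.32 ± 0.11 (SE, limma adjusted p = 0.49). It was 0.42 (adjusted p = 0.056) without the weakly enriched libraries. Kcnj3 had 19.4 and 27.3 (0.41, adjusted p = 0.49) and Scn4b 54.6 and 61.2 (0.20, adjusted p = 0.59). In the other direction Scn9a, a channel of pain fibres, had 48.9 and 41.996 (-0.19, adjusted p = 0.74), Kcnn1 149 and 138, and Scn3a at its high placement 155 and 147. The ranges overlapped for all 6.

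Whether a library's deviation from its group was carried over to the library of the same condition and replicate number at the other time was asked over 35 pairs. The labels do not say that a number marks an animal. No member of 208 reached a correlation of 0.5, against 1.64% of tested regions, and 0 passed an adjusted permutation p of 0.05, against 0.269%. Unadjusted, 8 of 208 members had a permutation p under 0.05, all with positive r. This is a smaller share than in the table, where 1319 of 16385 regions did (8.05%). The median r was 0.09 for members and 0.10 for the table. The highest was at Grm6, the receptor of retinal bipolar cells (r = 0.47, permutation p = 0.013, adjusted p = 0.45; rho = 0.33, p = 0.077; mean signal 112). It was 0.30 without the 2 pairs farthest from the median and 0.21 without replicate 5. Cacng5 followed (r = 0.44, permutation p = 0.027, adjusted p = 0.55; rho = 0.42, p = 0.031), at 0.42 without 2 pairs, but 0.05 after quantile normalization and 0.20 without replicate 5. Scn7a, a sodium-sensing channel, had r = 0.42 (rho = 0.36) and Scn3a at its low placement 0.40 (rho = 0.32), with adjusted permutation p of 0.53 and 0.59, and 0.36 and 0.37 without 2 pairs. Without pairs that hold a weakly enriched library r was 0.02 at Scn7a, and with a pseudocount of 10 it was 0.21 at Scn3a. In all, 16385 regions were tested in this way.

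The authors' deposited table of peaks between DEN 30 mg/kg and the promoted control covers whole genes. The times it names 5w and 11w are read here as the 2 sampling times. By gene symbol 328 of its 36231 peaks lay at 95 member genes. At 5w, 243 were higher in DEN 30 mg/kg and 19 lower, and at 11w 19 were higher and 47 lower. The higher ones were 92.7% of member peaks at 5w and 28.8% at 11w, and in the whole list the shares were 95.4% and 32.3%. Introns held 304 of the 328 peaks (92.7%), against 78.9% of all peaks with a gene, and numbers of peaks were not scaled for gene length. The families with the most peaks were Kcna to Kcnv subunits (48 peaks in 15 genes), metabotropic receptors (43 in 5) and alpha2delta subunits (40 in 4).

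Grm8 had 22 peaks, 17 higher at 5w, Cacna2d3 21, and Cacna2d1 and Grin2a 12 each. In the authors' deposited table, 29 member genes had peaks at both times, but only at Grin2a, an NMDA receptor subunit, did peaks of the 2 times overlap, at chr10:5659864-5660094 and chr10:5659913-5660098, both higher in DEN 30 mg/kg. Neither was counted over all genes of the list, so these are not results particular to members. Among the other genes with peaks at both times were Cacna1a, Cacna1c, Cacna1g, Cacna2d2, Cacna2d4, Cacnb4, Gabrb1, Gria2, Grik1, Grik3, Grin2b, Kcnab1, Kcnd2, Kcnh5, Kcnh8, Kcnip4, Kcnj12, Kcnn3, Kcns2, Kcnt2, Scn11a and Scn8a beside Grm8, Cacna2d3 and Cacna2d1. The largest enrichment factors in the authors' deposited table rest on 1 to 3 reads in the other set. At 5w they were 25.5 at Grik1 (27 reads against 1), 22.7 at Kcnd2 (24 against 1) and 21.8 at Grm8 (23 against 1) for peaks higher in DEN 30 mg/kg. For lower peaks they were 10.04 at Kcne1 (19 against 2), 9.51 at Kcnh5 (18 against 2) and 9.16 at Cacna2d1 (26 against 3). At 11w they were 17.4 at Grin2a (37 against 2) and 16.97 at Cacna2d3 (18 against 1) for higher peaks, and 19.1 at Kcnd2 and at Kcnh5 (18 against 1 each) and 16.97 at Cacna1c (16 against 1) for lower ones.

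Inside the member regions lay 13 of the peaks in 13 genes, 9 of them higher at 5w. Their regions had limma log2 differences for DEN 30 mg/kg between -0.30 and 0.66 at the matching time, 9 of 13 in the direction of the peak, and 0 had an unadjusted p under 0.05. The same was not counted over other regions that hold peaks. Of all tested regions 54.8% were higher in DEN 30 mg/kg than in the promoted control at partial hepatectomy. At Chrna2, a nicotinic subunit, the authors' deposited table has 25 reads against 2 in the peak at 5w, and the region differed by 0.23 ± 0.24 (SE, limma adjusted p = 0.81). At Kcne1, an accessory subunit of Kcnq1, it has 19 against 2 in the lower direction, and the region differed by -0.30 ± 0.18 (adjusted p = 0.71). Replicates are not separated in the peak list, so these counts have no error.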

How the data were processed

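Liver DNA enriched with the MethylMiner kit was read on a SOLiD 4, per the labels' protocols; aligner and build: not given in the sources used here. Region coordinates are those of the files. The deposited signal in the region tables was scaled by the authors, with a region without a read set to 0.01; above that, 100% of values were whole multiples of 1 step per library within a tolerance of 0.01. The scaling totals were 42061271 to 56618960. The authors deposited p-values from t-tests, which were not used. Peak read counts and the enrichment factor, a fold ratio of both counts with a fixed scaling, are the authors' deposited values. Caller and threshold: not given in the sources used here.

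Regions with a value of 10 or more in at least 5 libraries were tested on log2(deposited signal + 1) with limma 3.58.1 in R 4.3.3, 1 mean per group, with a variance trend and Benjamini-Hochberg adjustment over all tested regions. Log2 differences are on that scale and understate changes at low values. A test on simulated data over 15866 regions planted changes in DEN 30 mg/kg, 200 regions of each size in 1 run. Against the promoted control, 178 of 200 regions changed 2-fold and 200 of 200 changed 4-fold were called, with 19 unchanged regions. Changed regions were drawn above a minimum mean, and the simulated spread before counting noise was set below the observed one. No weakly enriched libraries were simulated, and many changed regions ease the adjustment. The shares therefore do not tell how often such changes would be found in these data. Correlations within a replicate number used 100000 permutations within conditions, in numpy 2.4.6. The 3 level classes were formed from means over 70 libraries. Peak coordinates are printed as deposited.

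Members, lists and tests were chosen with earlier results of these data known, Cacng5 and Grm7 among them. Named members are the 2 genes per direction with the smallest p in each contrast, 3 in each F test and per direction between the times, the highest and lowest gene of each family, the 5 highest correlations, the 3 highest enrichment factors per time and direction, and genes with peaks at both times. Genes named for background, the Kcnk2 and Scn3a starts and the peaks inside regions fell outside this rule, chosen after their values were seen; so did the comparison by level and weakly enriched libraries. Alternatives were another pseudocount, other filters, quantile normalization, blocks of replicate or library numbers, and leaving out libraries. Results for some genes that this rule names are not reported here.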

Additional observations from a re-analysis of the deposited data

Results flagged for a closer look

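Among 134 groups of 5 libraries behind the named members, 11 held a library far from the other 4, where its gap to the nearest divided by the range exceeded 0.71. For independent groups of normal values chance gives about 5%, and 11 is 8.21%. These groups share libraries and belong to members named mainly by small p, so that rate need not hold here. It was not counted over other members or regions. Of the 11 outlying values 6 come from weakly enriched libraries, and 1 of these libraries recurs at several genes. Replicate 5 of the promoted control at terminal euthanasia, a weakly enriched library, was low at Cacnb4 (133, others 214 to 228), Kcnd1 (51.5, others 133 to 153) and Scn4a (57.2, others 116 to 129.8). At the same time, weakly enriched libraries stood apart at Cacng3 in DEN 30 mg/kg replicate 3 (89.0, others 48.7 to 59.02), at the second placement of Grm7 in methapyrilene replicate 3 (18.2, others 40.8 to 46.3) and at Kcnq1 in acetaminophen replicate 3 (45.2, others 12.7 to 20.9). The remaining ones at that time were Kcnk15 in acetaminophen replicate 5 (173, others 101 to 109), Cacna1b in DEN 3 mg/kg replicate 2 (24.7, others 7.19 to 11.5) and the first placement of Grm7 in water replicate 4 (27.8, others 35.04 to 37.1). At partial hepatectomy they were Kcnj12 in the promoted control replicate 1 (119, others 45.8 to 63.01) and Grik5 in acetaminophen replicate 4 (62.3, others 37.1 to 40.5). The part of these libraries in the differences was not tested beyond leaving each out.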

How the results depend on the processing

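Of 766 refits of the 17 counts of members past the threshold, 764 gave 0 members, as with all libraries. For DEN 30 mg/kg against DEN 3 mg/kg at partial hepatectomy, 1 member (the second placement of Grm7) passed without the last library numbers, and leaving out single replicates gave 0 to 1, the 1 without replicate 5 of DEN 30 mg/kg; the cause was not tested. With the replicate block the counts were 0 in every contrast. Replicate numbers were not taken as pairing the libraries, since the labels do not say that they do. Deviations of same-numbered libraries of a condition correlated at -0.38 to 0.68 between the times, above 0.1 in 11 of 35 pairs. Same-numbered libraries of different conditions ranged as widely within a time (-0.63 to 0.77 and -0.43 to 0.73). This spread therefore cannot decide whether a number marks an animal. In the adjusted permutation test within a number, 44 of 16385 regions passed, all with positive r and none of them members. The count of the 208 members at a correlation of 0.5 or more, 0 with all pairs, was 5 after quantile normalization, 4 without pairs with a weakly enriched library and 2 to 5 without single replicate numbers, where fewer pairs enter. Over all tested regions the shares were, in the same order, 1.64%, 1.46%, 4.04% and 2.20% to 3.45%. The median member level stayed between 71.1 and 74.6, and 0 of 152 family levels moved by more than the spread between libraries. That spread is the SD of single-library medians, while a level averages many libraries, so this check could hardly have shown a shift. Named differences changed sign in 57 of 4955 refits. edgeR and DESeq2 had been listed for recovered whole reads and were not run, since the deposited signal does not qualify as counts. Depth limits the 13 members with means under 10, and Grm5, Gabre and Gabra3 were too low for any test.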

Other observations

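Members often lie beside one another, and 34 clusters with neighbours within 500 kb hold 85 of the 198 places. Some clusters are alike in level. On chromosome 10, the inward rectifier genes Kcnj16 (526) and Kcnj2 (457) share a stretch of 66.4 kb. On the X chromosome, the GABA-A subunits Gabre (1.99), Gabra3 (1.55) and Gabrq (6.59) are all low, and on chromosome 8 the sodium channels of sensory neurons, Scn10a (291) and Scn11a (152), are both high. Kcne1 (199) and Kcne2 (182) on chromosome 11 and Kcnj1 (179) and Kcnj5 (179) on chromosome 8 also lie close in level.

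Other clusters are not alike. Cacng4 (24.5) sits on chromosome 10 between Cacng1 (193) and Cacng5 (204). Kcna5 (204), Kcna1 (51.4) and Kcna6 (105) share a stretch of chromosome 4, Kcnj11 (360.2) and Grin2d (20.9) one of chromosome 1, and Chrng (109) and Kcnj13 (7.24) one of chromosome 9. Neighbours can share overlapping fragments and sequence, and likeness between them was not tested.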
